A study of Saccharomyces cerevisiae with 12 samples.

Results

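The 35 genes described here are intron genes of the small ribosomal subunit of budding yeast, Saccharomyces cerevisiae, and the features measured are splice forms outside the annotation. A listed form belonged to the set if the table named 1 of these genes as its host. This gave 224 of the 6195 forms in the table. The genes encode 18 proteins, 17 of them from 2 gene copies, an A and a B copy. The R64 annotation holds 1 intron in the coding sequence of 33 of the genes and none in RPS26A and RPS26B, so these 2 carry the name of intron gene without an annotated coding intron.

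RNA depleted of ribosomal RNA was sequenced from haploid BY4741, a laboratory strain, and from derivatives of it. Every genotype carried his3Δ1, leu2Δ0, met15Δ0 and ura3Δ0 and was given as MATa. The 6 genotypes were wild type with no further change, set1Δ, set2Δ, prp43-1, set1Δ prp43-1 and set2Δ prp43-1, each as 1 library at 25 °C and 1 at 37 °C. The labels describe growth at 25 °C only, so how long the cells of the 37 °C libraries were kept at that temperature is not given in the sources used here. Each genotype is represented by 1 strain, and no condition was repeated.

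An intron is removed by the spliceosome, which joins a 5′ splice site, beginning with GT in the DNA, to a 3′ splice site, ending with AG, through a branch adenosine that in yeast usually lies in the sequence TACTAAC. Ribosomal protein genes are few among yeast genes but account for much of its splicing, because many of them hold an intron and all are highly transcribed. Prp43 is an RNA helicase that dismantles finished and stalled spliceosomes, prp43-1 is an altered allele of its gene, and Set1 and Set2 methylate different lysines of histone H3. The study compared the strains and temperatures, as far as its title and design state, to find splicing across the whole genome.

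The column totals of the 12 libraries ranged from 214055 to 402886 reads on listed forms, and between 74.5% and 87.5% of a column fell on SCR1, a noncoding RNA of protein targeting. These totals are not the depth of the libraries, which is not given in the sources used here. Forms of 4 alpha-specific genes had reads in set1Δ, set2Δ and set2Δ prp43-1 at both temperatures, between 2 and 99 reads per library, and none in the other libraries, whereas forms of a-specific genes had 1 to 3 reads in those and none in these, although the labels give one mating type for all. For the summed reads, the tested forms of the set and the count of called forms, results for temperature and prp43-1 are therefore also given without these 3 strains. Both set2Δ strains had such reads, and wild type and prp43-1 had none. A difference with set2Δ can therefore not be told apart from the difference in these reads. The same holds for set1Δ in the pairs without prp43-1. Annotated junctions are not listed, so a change in a form and a change in the amount of its host RNA cannot be told apart.

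The 3′ regions of well-read forms and of some of their gene copies are shown first, because most of the findings concern where the second end of the skip lies. Each line begins at the branch consensus of the annotated intron, and capitals mark, in order along the line, TACTAAC and the last 3 bases of the listed form and of the annotated intron. In RPS10A, RPS10B and RPS18A the listed end comes before the annotated one, and in the other 7 it comes after, in the second exon.
RPS10A: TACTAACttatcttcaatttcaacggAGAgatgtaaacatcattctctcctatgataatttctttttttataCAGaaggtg
RPS10B: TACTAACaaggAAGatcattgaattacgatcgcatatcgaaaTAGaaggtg
RPS18A: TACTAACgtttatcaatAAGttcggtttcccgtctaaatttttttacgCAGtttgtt
RPS4A: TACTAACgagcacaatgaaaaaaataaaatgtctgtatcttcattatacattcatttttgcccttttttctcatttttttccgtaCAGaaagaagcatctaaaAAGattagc
RPS4B: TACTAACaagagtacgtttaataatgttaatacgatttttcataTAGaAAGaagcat
RPS27A: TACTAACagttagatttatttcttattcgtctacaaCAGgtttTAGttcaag
RPS27B: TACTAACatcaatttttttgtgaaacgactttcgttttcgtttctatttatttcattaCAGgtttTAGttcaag
RPS0A: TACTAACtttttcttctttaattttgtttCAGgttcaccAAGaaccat
RPS0B: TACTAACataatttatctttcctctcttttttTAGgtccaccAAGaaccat
RPS21B: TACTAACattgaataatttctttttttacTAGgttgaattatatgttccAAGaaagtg
All are from R64. The RPS10A line is chrXV:867512-867592, RPS10B chrXIII:732831-732881, RPS18A chrIV:1360354-1360410, RPS27A chrXI:158928-158979, RPS0A chrVII:921088-921135 and RPS0B chrXII:242646-242696, on the plus strand. The RPS4A line is chrX:702775-702886, RPS4B chrVIII:505238-505294, RPS27B chrVIII:148104-148177 and RPS21B chrX:156764-156821, on the minus strand.

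Splice forms with reads were found in 34 of the 35 genes, and 2 forms took most of the reads. Of the 224 forms, 174 had at least 1 read and 50 had none in the 12 libraries, and RPS24A, with 1 form, was the gene without a read. The forms held 2795 reads, 0.652% of the reads on forms in coding hosts. A 390-nt skip in RPS10A and a 379-nt skip in RPS10B held 1708 of these reads (61.1%). Most other forms were rare: 74 were seen in 1 library only, 47 of them as a single read, while 5 were seen in all 12 libraries. The 10 genes of the head of the subunit, RPS10A and RPS10B among them, held 1923 reads on 46 detected forms, and the 25 genes of its body and platform 872 reads on 128 forms. The larger sum for the head came from the RPS10 genes.

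Among the detected forms, 83 began at the annotated 5′ splice site and ended at another 3′ position, in 28 genes. Another 15 ended at the annotated 3′ site and began elsewhere, in 11 genes, and 37 lay outside the intron, in 19 genes. A further 10 forms had both ends within 5 nt of the annotated sites, 8 lay inside the intron at other positions and 15 crossed an intron end without an annotated site. The 6 detected forms of RPS26A and RPS26B, which have no annotated intron, held 8 reads. Forms that keep the annotated 5′ site made up 47.7% of the detected forms, 58.6% of those with at least 10 reads and 76.2% of those with GT and AG at their ends. The authors' deposited p-value, whose test is not stated, was under 0.05 for 134 of the 224 forms and exactly 1 for 76, the RPS10A form among them.

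RPS10A (YOR293W) and RPS10B (YMR230W) encode a protein of the head of the subunit, and both copies had a skip that ended inside the annotated intron, nearer to the branch point. The RPS10B form, chrXIII:732466-732844, kept the annotated 5′ splice site GTATGT and ended with AAG, 31 nt upstream of the annotated 3′ site. Only 8 nt lay between its branch adenosine and its end, against 39 nt in the annotated intron and a median of 39 nt (19 to 82 nt) in the 30 annotated introns of the set that hold TACTAAC. Over all 12 libraries it had 744 reads, from 32 to 97 per library with a median of 62. Every library held it.

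The RPS10A form, chrXV:867151-867540, had 964 reads, from 25 to 119 per library with a median of 85.5. It began 1 nt downstream of the annotated 5′ site and ended 46 nt upstream of the annotated 3′ site, 23 nt after the branch adenosine, so that its first bases were TATGTT and its last AGA. Moving both ends by the same number of bases gives another spliced sequence at every shift, so these ends are the only placement of that sequence. Within 2 nt of both ends, R64 has GT-AG pairs at chrXV:867150-867539 and chrXV:867150-867541, which share the GTATGT of the annotated intron, and the table lists neither. The table thus holds the most-read form of the set at ends without GT-AG in the reference, and whether the strain differs from the reference there was not tested. Read with either skip, the RPS10A and RPS10B RNAs meet a stop after 19 codons, against 105 codons in the annotated frame.

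In the plot of 3′ ends the RPS10B form stands far above all others that keep the annotated 5′ site. The others with at least 25 reads lie within 10 nt downstream of the annotated 3′ site, except RPS18A at -31 nt and RPS0B far into the second exon.

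**Figure D1:**
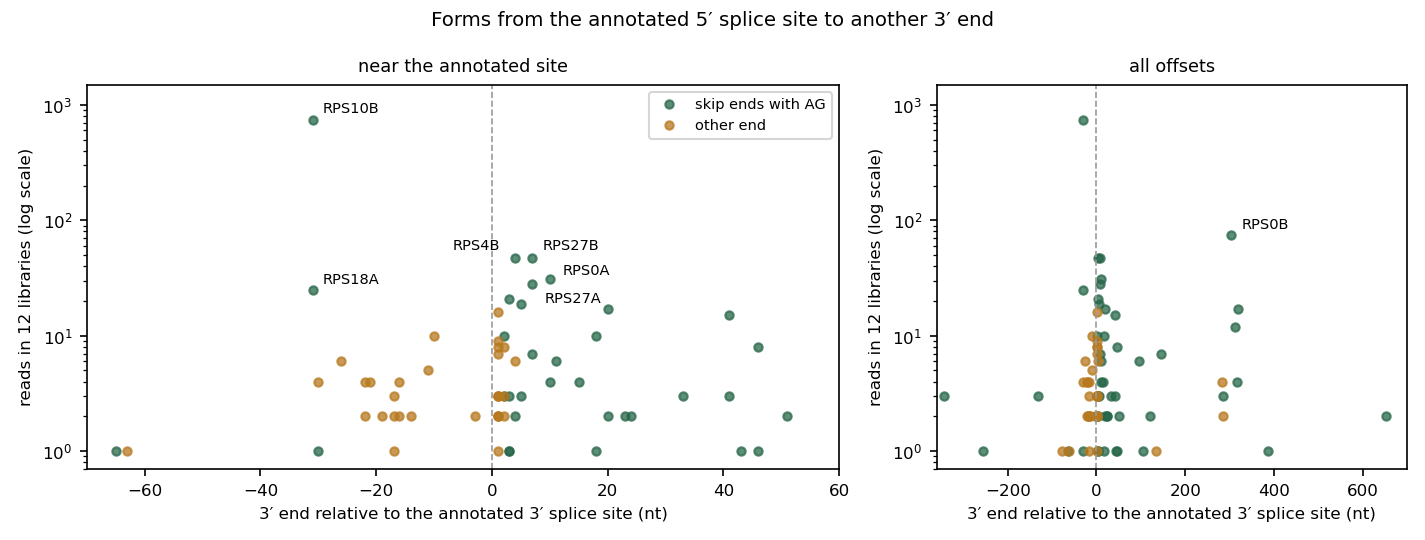
Reads summed over 12 libraries (log scale) of the 83 detected forms that start at the annotated 5′ splice site, against the distance of their 3′ end from the annotated 3′ site in nt (negative values lie in the intron). RPS10B stands at -31 nt with 744 reads and RPS0B at 303 nt with 74 reads, and most other forms lie near 0 with under 50 reads.

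Of the 83 forms with another 3′ end, 48 ended with AG, in 24 genes, and these held 1211 of 1348 reads. The AG lay downstream of the annotated site in 41 forms with 433 reads and upstream in 7 forms with 778 reads, 744 of them the RPS10B form. The bases before the G varied, with 23 forms ending AAG, 11 TAG, 9 CAG and 5 GAG. The first AG after the annotated site was the end of 17 of these forms, in 17 genes, with 246 reads. TACTAAC lay in the last 100 nt of 24 of the 48, against 30 of 33 annotated introns of the set (90.9%) and 223 of 281 of all annotated introns (79.4%), when the 7 letters were searched on the strand of the host only.

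RPS0A (YGR214W) and RPS0B (YLR048W) encode a protein of the subunit body that is needed for late steps of ribosomal RNA processing. In RPS0B, a 662-nt skip, chrXII:242322-242983, ran from the annotated 5′ site to a CAG 303 nt inside the second exon. It had 74 reads, from 2 to 10 per library with a median of 6.5, and was seen in all 12. Its frame runs to the annotated stop and leaves 151 of 252 codons. The bases before its end are shown because they lie in coding sequence, with the last 3 skipped bases in capitals, next to those of a 720-nt skip of RPS7A that ends 319 nt downstream of its annotated site (17 reads) and a 363-nt skip of RPS21A that ends 41 nt downstream (15 reads).
RPS0B at 303: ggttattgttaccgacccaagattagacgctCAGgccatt
RPS7A at 319: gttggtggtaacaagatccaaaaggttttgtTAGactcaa
RPS21A at 41: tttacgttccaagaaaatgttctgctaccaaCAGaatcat
These windows are chrXII:242950-242989, chrXV:506624-506663 and chrXI:552010-552049 of R64, on the plus strand. RPS7A (YOR096W), a gene of a body protein, and RPS21A (YKR057W), whose protein lies beside Rps0, both meet an early stop with these skips, after 69 of 190 and 12 of 87 codons.

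RPS27A (YKL156W) and RPS27B (YHR021C) encode a zinc-binding protein of the platform, and both used a TAG 7 nt past the annotated CAG, in the shared exon sequence gttttag that the lines above show. The RPS27B form, chrVIII:148110-148666, had 47 reads and was seen in all 12 libraries, with 1 to 10 reads each. The RPS27A form, chrXI:158616-158973, had 28 reads in 8 libraries, from 0 to 11. RPS4B (YHR203C), a gene of a body protein, had 47 reads in 10 libraries on a form that ended 4 nt downstream at AAG, chrVIII:505244-505516, and its copy RPS4A (YJR145C) had 2 reads at the same offset and 10 reads on a form that ended 18 nt downstream. RPS0A had 31 reads in 9 libraries on a form that ended 10 nt downstream, chrVII:920665-921129. All of these except the RPS4A form at 18 nt, which keeps the frame and leaves 255 of 261 codons, shift the reading frame to an earlier stop.

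RPS18A (YDR450W), whose protein lies in the head, had 25 reads on a form that ended 31 nt upstream, chrIV:1359970-1360373, 14 nt after the branch adenosine. RPS9B (YBR189W), whose protein affects the accuracy of decoding, had 21 reads on a form 3 nt longer than its intron, chrII:604515-604930, which removes 1 of 195 codons and keeps the frame. RPS21B (YJL136C) had 17 reads on a form ending 20 nt downstream, chrX:156770-157249. None of these reached 10 reads in a library.

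Of the 48 forms with an annotated 5′ site and an AG end, 32 lead to an earlier stop and 14 keep a frame to the annotated stop, and 2 had no stop within the coding span. The 32 held 1070 reads and the 14 held 138 reads. Frames were read from the annotated start codon on the assumption that the rest of the RNA is spliced as annotated. The other 35 forms from the annotated 5′ site did not end with AG and held 137 reads, 69 of them on 14 forms that ended 1 or 2 nt downstream of the annotated 3′ site. RPS4A, for example, had 16 reads on a form ending 1 nt downstream, chrX:702798-703054, with AGA as its last bases. Whether such ends come from splicing or from the placing of read ends was not tested.

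Forms from another 5′ end to the annotated 3′ site were rarer, with 85 reads on 15 forms, 10 of which had GT-AG ends. The best read was in RPS13 (YDR064W), whose protein belongs to the body: a 123-nt skip, chrIV:579895-580017, that started at GTATGG 416 nt downstream of the annotated 5′ site and had 19 reads in 9 libraries. RPS27B had 17 reads on a 392-nt skip that started at GTATGC 158 nt downstream, chrVIII:148117-148508, and RPS11A (YDR025W), of the body, 11 reads on a 210-nt skip that started with GCATGT 129 nt downstream, chrIV:491689-491898. A form of RPS13 that started at GTATGC 14 nt upstream had 10 reads. The starts are set beside the annotated ones here, with the first 6 skipped bases in capitals.
RPS13 annotated: gcacagtgccGTATGTttattaacaccata
RPS13 at 416: taatggaattGTATGGtctgaacgaggaaa
RPS13 at -14: aaaatgggtcGTATGCacagtgccgtatgt
RPS27B annotated: gatcaatatgGTATGTgaaagagatattaa
RPS27B at 158: tttgataggaGTATGCgtttccgcaaaatc
RPS11A annotated: tttccaaaagGTATGAatttagcgataatg
RPS11A at 129: tgaattcttaGCATGTttattgttacgact
In R64 the RPS13 lines are chrIV:579469-579498, chrIV:579885-579914 and chrIV:579455-579484, the RPS11A lines chrIV:491550-491579 and chrIV:491679-491708, all on the plus strand, and the RPS27B lines chrVIII:148647-148676 and chrVIII:148489-148518 on the minus strand. Of the 15 forms, 13 lead to an earlier stop and 2 remove the start codon. Whether those without GT-AG ends come from splicing or from the placing of read ends was not tested.

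Skips outside the intron were shorter, with a median of 55 nt (12 to 328 nt) over the 38 listed, and 1 of the 37 detected had GT-AG ends. A 30-nt skip in the second exon of RPS0A, chrVII:921686-921715, was the most read, with 85 reads, 1 to 21 per library, in all 12 libraries. A 15-nt skip with the same start, chrVII:921686-921700, had 14 reads. Both keep the frame and leave 242 and 247 of 252 codons. RPS4A had 42 reads on a 55-nt skip, chrX:702600-702654, and RPS4B 9 reads on a skip of the same length. Both end 199 nt past the annotated 3′ site. With the same result, the RPS4A skip can be placed up to 2 nt to the left or 5 nt to the right, and the RPS4B skip up to 2 or 3 nt. RPS16B (YDL083C), whose protein reaches toward the tRNA sites from the head, had 34 reads on a 135-nt skip, chrIV:306962-307096, which keeps the frame and can be placed 3 nt to the left or 4 nt to the right with the same result. None of the 5 skips named here had GT-AG ends, and all 5 had a deposited p-value of 1.

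The gene copies often had forms at the same distance from the annotated 3′ site. In 9 of the 17 pairs the table lists at least 1 such shared 3′ end, 14 in all, and 11 of the 14 end with AG in both copies. Reads were found in both copies for 9 of these 11. Among them were RPS0 at 10 nt (31 and 4 reads in the A and B copies), RPS4 at 4 nt (2 and 47), RPS7 at 46 nt (1 and 8), RPS9 at 3 nt (1 and 21), RPS10 at 3 nt (1 and 3), RPS19 at 2 nt (10 and 3), RPS21 at 20 nt (2 and 17) and RPS27 at 7 nt (28 and 47). The ends lie in exons, which are much alike between copies, whereas the best-read upstream ends, in the introns of RPS10A and RPS10B, lie at 46 and 31 nt. Because the copies are so similar and the authors' rule for reads that match both is not stated, the split between copies is uncertain.

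In the plot of both copies, the sums of reads were close for some pairs and far apart for others. RPS4A and RPS4B had 85 and 84 reads and RPS21A and RPS21B 21 and 20, whereas RPS11A had 32 against 3 in RPS11B and RPS9B had 49 against 9 in RPS9A. Neither copy led throughout.

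**Figure D2:**
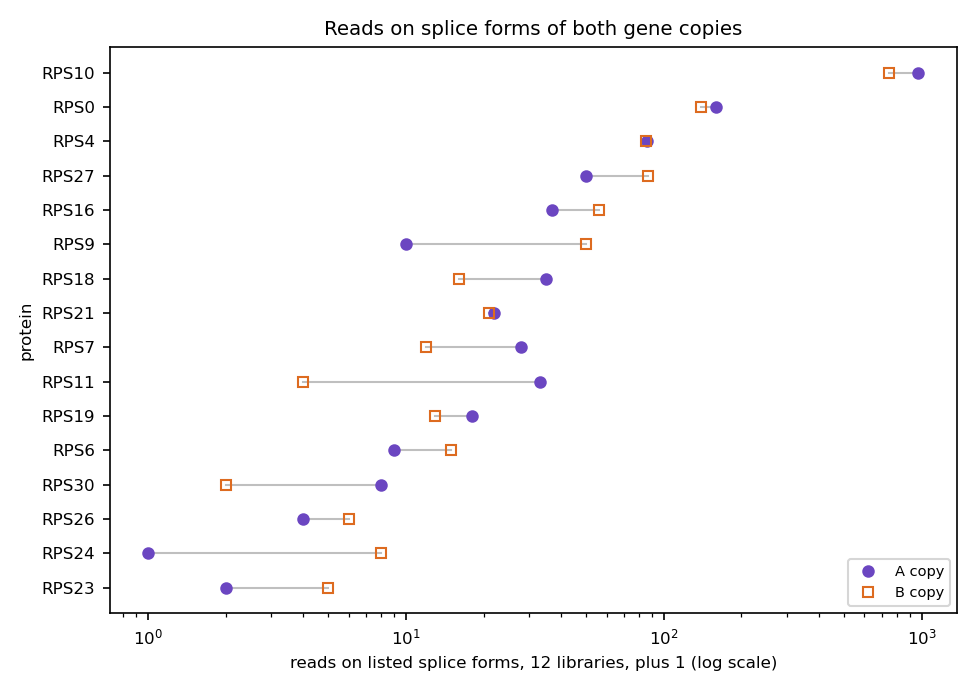
Reads summed over 12 libraries and all listed forms of a gene, plus 1, on a log scale, for the A copy (filled circles) and the B copy (open squares) of 16 proteins. RPS10 has the most reads, with 972 and 750, and RPS24A has 0.

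Across conditions, the summed reads of the set varied widely between libraries. They ranged from 98 reads (set2Δ prp43-1, 37 °C) to 334 reads (set1Δ prp43-1, 25 °C), and the scaled sums from 310 to 1280 CPM (counts scaled to the column totals with edgeR's TMM factors). At 37 °C the scaled sum was lower than at 25 °C in 5 of 6 genotypes and higher in wild type (540 CPM at 25 °C and 1280 CPM at 37 °C). On the log2 scale, with 1 read added to each sum, this came to -0.39 ± 0.91 on average (SD, n = 6 pairs of libraries). For prp43-1 the average was -0.24 ± 0.91 (SD, n = 6 pairs, 4 lower), for set1Δ -0.40 ± 1.06 (SD, n = 4 pairs, 3 lower) and for set2Δ -0.50 ± 1.07 (SD, n = 4 pairs, 3 lower). Each mean was smaller than the SD between its pairs. All set2Δ pairs, and the set1Δ pairs without prp43-1, also differ in the reads on alpha-specific genes, which cannot be told apart from the deletions. These sums were not tested, because the genes were chosen with earlier results known. Leaving out 1 library removes its pair, and on the CPM scale, used from here on, the wild-type libraries weighed most. Without either of them the mean for temperature was -0.72 ± 0.49 (SD, n = 5 pairs, all lower). Without wild type at 25 °C it was -0.54 ± 0.61 for prp43-1 (SD, n = 5 pairs), -0.92 ± 0.36 for set1Δ (SD, n = 3 pairs) and -0.98 ± 0.60 for set2Δ (SD, n = 3 pairs), and leaving out the mutant library of the same pair gives the same values. In the other direction, the mean came to 0.01 for prp43-1 without set2Δ or set2Δ prp43-1 at 37 °C, to -0.10 for set1Δ without wild type or set1Δ at 37 °C, and to -0.12 for set2Δ without prp43-1 or set2Δ prp43-1 at 37 °C. For temperature it was -0.23 without either set1Δ library and -0.22 without either set2Δ prp43-1 library. Without RPS10A and RPS10B it was -0.08 ± 1.16 (SD, n = 6 pairs). Without the 3 strains with reads on alpha-specific genes, a choice made after seeing the data, the averages turned to 0.11 ± 0.98 for temperature (SD, n = 3 pairs) and 0.43 ± 1.14 for prp43-1 (SD, n = 2 pairs).

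Drawn down to 98 reads per library, the number of distinct forms was 21.5 in wild type at 25 °C and 29.2 at 37 °C. It was higher at 37 °C in 5 of 6 genotypes, with set1Δ the exception (28.2 and 22.4), and the mean difference was 2.93 ± 4.85 forms (SD, n = 6 pairs). Without RPS10A and RPS10B, and drawn down to 41 reads, the number was higher at 37 °C in 4 of 6 genotypes, and the mean difference was -1.0 ± 3.94 forms (SD, n = 6 pairs). Both differences lay within the spread between pairs.

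Only 3 forms of the set passed the filter for the test across all forms, those of RPS10A and RPS10B and the 662-nt skip of RPS0B. Of these 3, 0 passed the threshold in any comparison. The filter goes by reads relative to the column total in single libraries, not by their sum. The 30-nt skip of RPS0A, with 85 reads, was therefore not tested. With temperature 36 of 451 tested forms in the whole table passed an adjusted p of 0.05 (7.98%), 27 of them higher (5.99%) and 9 lower (2.0%) at 37 °C, and with prp43-1 18 forms (3.99%), 9 in each direction, by edgeR's quasi-likelihood test with Benjamini-Hochberg adjustment. For set1Δ, for set2Δ and for the interaction of prp43-1 with temperature 0 of 451 did (0.0%), with 15, 17 and 48 forms under an unadjusted p of 0.05. For temperature and prp43-1, 106 and 76 of the 451 forms had an unadjusted p under 0.05 by edgeR. Among the 3 forms of the set, 1 had an unadjusted p under 0.05 for temperature, 0 for prp43-1 and 1 for the interaction, and DESeq2 called 0. Counts this small among 3 forms cannot be told from the shares over all forms. Without TMM factors 3 forms were called with temperature, 1 of them higher. The count of 36 rests on single libraries: it was 3 without set2Δ prp43-1 at 37 °C, 7 without set2Δ at 25 °C or at 37 °C, 17 without set1Δ at 25 °C, and 18, 20 and 23 without prp43-1, set2Δ prp43-1 and set1Δ prp43-1 at 25 °C.

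The RPS10A form had 88, 119 and 103 reads at 25 °C in wild type, set1Δ and set2Δ and 114, 115 and 83 in the same order with prp43-1. At 37 °C it had 92, 50 and 76 reads, and 58, 41 and 25 with prp43-1. The scaled values were thus lower at 37 °C in 5 genotypes and higher in wild type, and the groups at both temperatures overlap. The fitted log2 difference was -0.79 (SE 0.30), with an adjusted p of 0.121 by edgeR's quasi-likelihood test. Without wild type at 25 °C it was -1.04 with an adjusted p of 0.0276 by edgeR, and without the 3 strains with reads on alpha-specific genes -0.43 with an adjusted p of 0.923 (edgeR), the lowest and highest adjusted p over its 19 alternatives.

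The RPS10B form had 47, 86 and 97 reads at 25 °C in wild type, set1Δ and set2Δ, and 68, 84 and 57 with prp43-1. At 37 °C these were 67, 51 and 50 reads, and 71, 34 and 32 with prp43-1. Scaled values were lower at 37 °C in 4 of 6 genotypes, with overlap between the temperatures, and the log2 difference was -0.42 (SE 0.31, edgeR adjusted p = 0.422). The sign turned to 0.13 without the 3 strains. With prp43-1 the log2 differences were -0.45 (SE 0.30, edgeR adjusted p = 0.498) for RPS10A and -0.29 (SE 0.31, edgeR adjusted p = 0.702) for RPS10B, and they turned to 0.25 and 0.69 without the 3 strains.

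Set against each other within a library, which needs no scaling, the RPS10A form made up 56.4% of the reads on both forms (95% CI 54.1 to 58.8%, Wilson, counting error only). In wild type its share was 65.2% at 25 °C (95% CI 56.8 to 72.7%) and 57.9% at 37 °C (50.1 to 65.3%). In prp43-1 it was 62.6% at 25 °C (55.4 to 69.3%) and 45.0% at 37 °C (36.6 to 53.6%), intervals that do not overlap. Each interval holds the counting error of a single library and no spread between cultures, so this is no test of temperature. The share lay lower at 37 °C in 5 of 6 genotypes, mostly with overlapping intervals, and higher in set2Δ (51.5% and 60.3%).

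**Figure D3:**
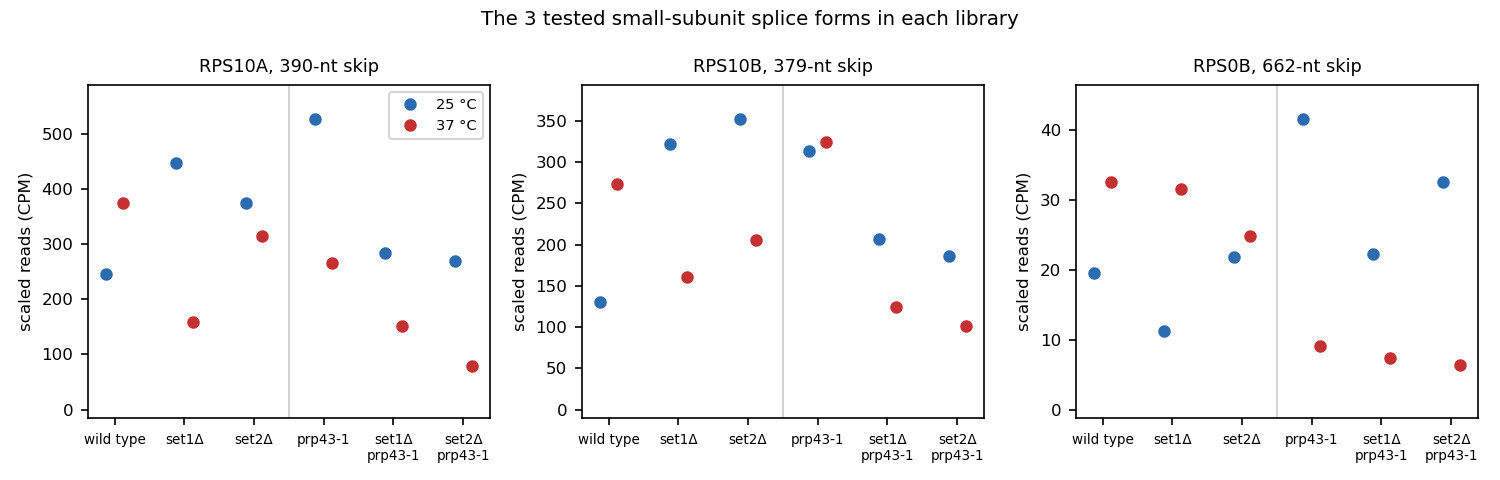
Scaled reads (CPM, counts scaled to the column totals with edgeR's TMM factors) of the 3 tested forms in each of the 12 libraries, 1 point per library, with PRP43 strains left of the grey line and prp43-1 strains right of it. The RPS0B form lies at 6.33 to 9.14 CPM in the 3 prp43-1 libraries at 37 °C, below its 3 prp43-1 libraries at 25 °C (22.2 to 41.5 CPM).

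The RPS0B form had 7, 3 and 6 reads at 25 °C and 8, 10 and 6 at 37 °C in wild type, set1Δ and set2Δ. With prp43-1 it had 9, 9 and 10 reads at 25 °C and 2 in each strain at 37 °C. Scaled values were higher at 37 °C than at 25 °C in all 3 PRP43 strains and lower in all 3 prp43-1 strains. The interaction had a log2 value of -2.78 (SE 0.82), an unadjusted p of 0.00525 and an adjusted p of 0.265 (edgeR), so it did not pass the threshold. The form passed the filter on low counts only through wild type at 37 °C (8 reads) and prp43-1 and set2Δ prp43-1 at 25 °C (9 and 10 reads). High values in these libraries also make the interaction negative, so its p-values are no support for it. The temperature and prp43-1 differences of the RPS0B form, over all strains, were -0.45 (SE 0.55, edgeR adjusted p = 0.658) and -0.36 (SE 0.55, edgeR adjusted p = 0.785). They were -0.81 and -0.21 without the 3 strains with reads on alpha-specific genes. For the interaction, the log2 values were -0.73 in RPS10A (SE 0.59, edgeR adjusted p = 0.709) and 0.00012 in RPS10B (edgeR adjusted p = 1.0).

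For set1Δ the log2 differences were -0.59 (SE 0.37) in RPS10A, -0.47 (SE 0.39) in RPS10B and -0.42 (SE 0.66) in RPS0B, with edgeR adjusted p-values of 0.996 for each. For set2Δ they were -0.58 (SE 0.37), -0.44 (SE 0.39) and -0.26 (SE 0.65), with edgeR adjusted p-values of 0.949, 0.949 and 0.95. None passed, and the standard errors leave room for differences of the size seen with temperature. For set2Δ, and for set1Δ in strains with intact Prp43, these differences cannot be told apart from the one in reads on alpha-specific genes.

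Some less-read forms had most of their reads at 37 °C and others at 25 °C, and the 6 described here were picked after their values were seen. The RPS21B form that ends 20 nt downstream had no read in the 6 libraries at 25 °C, and its 17 reads came from those at 37 °C. These were 9 in wild type, 1 in set1Δ, 4 in set2Δ and 1 in each prp43-1 strain, so the groups do not overlap. How many other forms of the table separate by temperature in this way was not counted, so the separation is no result by itself. Against a floor of 3 reads over the 6 libraries at 25 °C, the scaled sum was 6.44-fold higher. That value takes the 17 reads at 37 °C as exact, 9 of them from wild type, so it is not a lower bound. In a fit without a filter on low counts, of 5316 forms, its adjusted p for temperature was 0.0665 (edgeR), the smallest of the set, and 0 of 174 forms of the set passed in any comparison. Over all 5316 forms that fit called 14 with temperature (0.263%), 36 with prp43-1 (0.677%), 1 for set1Δ (0.0188%), 3 for set2Δ (0.0564%) and 1 for the interaction (0.0188%), shares so low that a count of 0 among 174 says little about the set.

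The RPS27A form that ends 7 nt downstream had 0, 0 and 1 reads at 25 °C in wild type, set1Δ and set2Δ, and 1, 2 and 0 with prp43-1. At 37 °C it had 11, 0 and 4 reads, and 3, 2 and 4 with prp43-1 (unfiltered edgeR fit, adjusted p = 0.327). The RPS21A form that ends 41 nt downstream had 3 reads at 25 °C and 12 at 37 °C, 10 of them in wild type (unfiltered edgeR fit, adjusted p = 0.811). The RPS27B form that starts 158 nt downstream had 1 read at 25 °C and 16 at 37 °C, 6 in wild type, 7 in set2Δ and 3 in the prp43-1 strains (unfiltered edgeR fit, adjusted p = 0.309). Wild type at 37 °C holds many of the reads of these 4 forms, though set2Δ at 37 °C holds more of the RPS27B form. Forms from the annotated 5′ site to another 3′ end, RPS10A and RPS10B left out, reached 468 CPM in wild type at 37 °C. They had 83.5 CPM in wild type at 25 °C and 69.6 to 268 CPM in the other 10 libraries. The RPS27B form starts elsewhere and is not in this sum.

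In the other direction, the 55-nt exon skip of RPS4A had 32 reads at 25 °C and 10 at 37 °C. It had 2, 2 and 8 reads at 25 °C in wild type, set1Δ and set2Δ, and 5, 12 and 3 with prp43-1, against 1, 0 and 2 and then 0, 2 and 5 at 37 °C. Scaled values were higher at 37 °C in 1 of 6 pairs, the groups overlap, and the unfiltered edgeR fit gave an adjusted p of 0.512. The 15-nt skip of RPS0A had 12 reads at 25 °C, in 4 libraries, and 2 at 37 °C, both in set1Δ prp43-1 (unfiltered edgeR fit, adjusted p = 0.811).

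**Figure D4:**
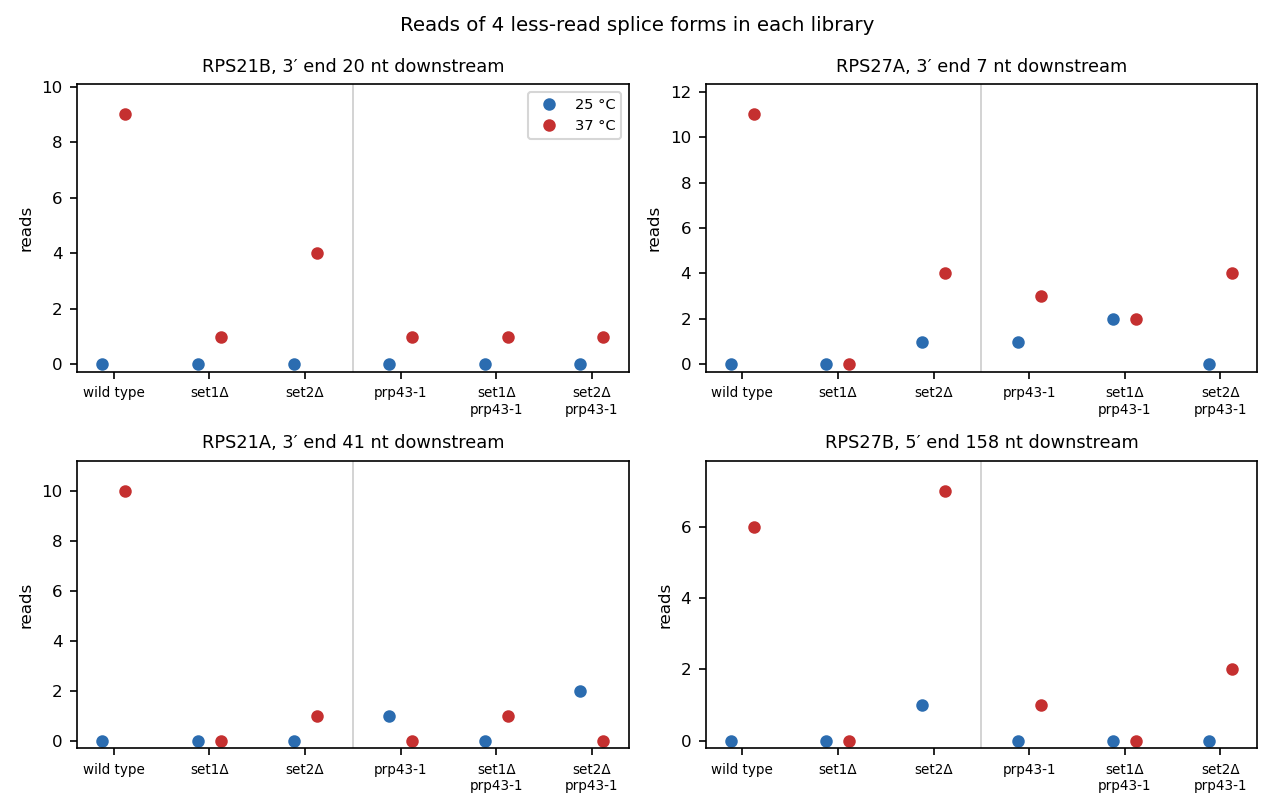
Reads of 4 forms with most of their reads at 37 °C in each of the 12 libraries, 1 point per library, with PRP43 strains left of the grey line and prp43-1 strains right of it. The RPS21B form has 1 to 9 reads in each library at 37 °C and none at 25 °C.

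With prp43-1, 2 further forms were picked after their values were seen. The 135-nt exon skip of RPS16B had 29 reads in the PRP43 strains and 5 in the prp43-1 strains. It had 1, 6 and 12 reads in wild type, set1Δ and set2Δ at 25 °C and 4, 4 and 2 at 37 °C, and 0, 1 and 3 with prp43-1 at 25 °C and 0, 0 and 1 at 37 °C. Scaled values were lower with prp43-1 in 6 of 6 pairs, though the groups overlap in their reads, and the unfiltered edgeR fit gave an adjusted p of 0.154. The 30-nt skip of RPS0A had 28 reads in the PRP43 strains and 57 in the prp43-1 strains, higher in 5 of 6 pairs on the scaled values (unfiltered edgeR fit, adjusted p = 0.836).

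Set beside the 53 intron genes of the large subunit, the 35 genes were similar in several shares and differed in others, and no test of a difference was made. The median number of listed forms per gene was 5 in both, and forms with a deposited p-value under 0.05 made up 59.8% here and 59.1% there. Of the detected forms, 47.7% and 47.4% ran from the annotated 5′ site to another 3′ end, and 57.8% and 56.4% of these ended with AG. The best-read form held 34.5% of the reads of the set here and 10.2% there. Upstream AG ends were 7 of 48 here and 18 of 62 in the large-subunit genes. Forms from another 5′ end to the annotated 3′ site were 15 of 174 detected forms here and 34 of 232 there. The median number of reads per gene was 20 here and 12 there.

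In other genes of the small subunit, all 4 tested forms passed the test in at least 1 comparison of the main fit. In the 4 further intron genes (RPS14A, RPS14B, RPS22B and ASC1) 2 of 34 forms were tested, both in RPS22B, and both fell with prp43-1 by edgeR. The 69-nt RPS22B form, with 1039 reads, fell by 2.65 on the log2 scale (SE 0.40, adjusted p = 0.000849) and, with temperature, fell by 2.05 (SE 0.39, adjusted p = 0.0155). In the 18 genes without an annotated intron 2 of 64 forms were tested, and both fell at 37 °C: a 93-nt skip in RPS2, which fell by 1.56 (SE 0.43, edgeR adjusted p = 0.0409), and the 308-nt skip upstream of RPS25A, which fell by 2.48 (SE 0.26, edgeR adjusted p = 5.87e-05). None of these 4 forms was called for set1Δ or set2Δ by edgeR. Their values are given from the main fit only, not without the 3 strains with reads on alpha-specific genes. Without those strains, 3 forms of the whole table were called with temperature and 5 with prp43-1.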

How the data were processed

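Per the file headers, the deposited table gives, for each splice form, the host gene, 2 splice site coordinates, a p-value and read counts in 12 libraries. The authors' counts are whole numbers with unequal totals, used as deposited, and what the deposited p-value tests is not stated. The submitters' processing notes name CASAVA, STAR 2.4.0 and sacCer3, with no role given, and the kit in the labels does not mark strand, so reads of overlapping transcripts cannot be told apart. Coordinates count from 1 and cover the skipped bases. They were read in R64: 729 of 1112 forms with a deposited p under 1 had GT-AG ends.

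Members and gene lists were chosen with earlier results of these data known. Forms were named if they were among the 20 with the most reads, passed the filter or were called. Some forms with fewer reads that met none of these rules are named as well. In R 4.3.3, edgeR 4.0.16 fitted all forms (filterByExpr, TMM, quasi-likelihood test) with terms for set1Δ, set2Δ, prp43-1 and temperature, and the interaction in a further fit. The Benjamini-Hochberg threshold was 0.05, the biological coefficient of variation 33.6%, and 451 forms were tested. Standard errors are the absolute log2 value over the square root of F. With 1 library per condition the spread is the residual of this model, and the 2 libraries of each strain were treated as independent. DESeq2 1.42.0, other scalings, no filter and left-out libraries were alternatives. Values of 1 gene pair are not reported here.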

Additional observations from a re-analysis of the deposited data

How the results depend on the processing

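The labels give no replicate numbers, but both temperatures of a strain form a pair, and a fit with the genotype as a block called 24 forms with temperature and 0 of the set. Over all alternatives 0 forms of the set were called, except that the RPS10A form passed for temperature without wild type at 25 °C (1 form). Counts over the whole table moved more. With temperature 36 forms were called, 3 without TMM factors, 72 without SCR1 forms, 14 without a filter, 56 with DESeq2, 3 without the set1Δ, set2Δ and set2Δ prp43-1 strains, and 3 to 44 without single libraries. With prp43-1 the 18 calls became 36 without a filter, 38 with DESeq2, 5 without the 3 strains, and 12 to 27 without single libraries. Without a filter 1 form was called for set1Δ, 3 for set2Δ and 1 for the interaction, where DESeq2 also called 1, and 0 to 1 were called without single libraries. Leaving out TMM factors shifted the median log2 value of all forms from -0.03 to -0.17 for temperature and from -0.06 to -0.31 for the interaction. The RPS10B value for the interaction, 0.00012, changed sign to -0.27 without TMM factors and -0.25 with the genotype as a block, and ranged from -0.64 to 0.51 without single libraries. Without the 3 strains, the signs turned for RPS10A with prp43-1 (0.25) and for RPS10B with prp43-1 (0.69) and temperature (0.13). For RPS0B, single libraries moved set1Δ between -0.96 and 0.02 and set2Δ between -0.64 and 0.19 (0.02 and 0.19 without prp43-1 at 25 °C, 0.03 without set2Δ prp43-1 at 37 °C). The cause of these changes was not tested. The means of the summed reads of the set moved by less than 1 SD under each alternative. Without single libraries they lay between -0.72 and -0.22 for temperature, -0.54 and 0.01 for prp43-1, -0.92 and -0.10 for set1Δ, and -0.98 and -0.12 for set2Δ. The share of detected forms from the annotated 5′ site rose from 47.7% to 58.6% with at least 10 reads and 76.2% with GT-AG ends. With 3 of 224 forms tested, depth limits every statement on the others to their reads.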

Other observations

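Among the forms below 10 reads, RPS6A and RPS6B, copies of a gene whose protein is phosphorylated in response to nutrients, both had a skip that started 4 nt upstream of the annotated 5′ site, with GAAGGT as its first bases, and ended at the annotated 3′ site. The RPS6A skip had 5 reads and the RPS6B skip 4, and both remove part of the start codon. RPS26A and RPS26B, whose protein lies at the exit of the messenger RNA channel, had 9 listed forms, 6 of them with TAG, CAG or AAG after a GT start. A further RPS26B form, a 341-nt skip from GTATGT, chrV:423591-423931, ends with CTG, not AG, upstream of the coding sequence. All of its 3 reads came from set1Δ at 25 °C.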
